A study of Mus musculus with 8 samples.

Results

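Organoids grown from mouse extrahepatic bile duct were compared with organoids grown from mouse pancreatic duct over the genes that at least 3 of the 6 cultures expressed. A gene was taken as expressed at 1 FPKM (sequenced fragments relative to exon length and to the depth of the library). By this rule 12106 of the 31228 genes in the table (38.8%) were compared, and 10637 of them (87.9%) are annotated as protein-coding. The data were 3 cultures of each duct, out of 8 libraries that also include 1 epithelium of each duct. All material came from C57BL/6 mice, with no transgene, deletion or drug given in the labels. Both kinds of organoid, which are hollow epithelial cultures in a gel matrix (Matrigel), shared one medium with EGF at 50 ng/mL, R-spondin-1 at 100 ng/mL, Noggin at 25 ng/mL and FGF10 at 100 ng/mL. Wnt3A-conditioned medium and the kinase inhibitor Y27632 were withdrawn once luminal organoids had formed, and RNA was taken after 3 to 4 passages. The labels give neither the age of the mice nor whether the 3 cultures of a duct came from separate animals, so the spread between cultures may be technical. The comparison asks how alike the organoids of the ducts are.

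The extrahepatic bile duct and the pancreatic duct arise next to each other from foregut endoderm and share the transcription factors Sox9 and Foxa2, simple-epithelial keratins, and chloride and bicarbonate transporters that make a watery alkaline secretion. In the embryo Pdx1 marks the pancreatic and common duct territory and Sox17 the biliary one. Duct cells placed in a medium with R-spondin, which strengthens Wnt signals, and with growth factors enter a proliferating, regenerative state.

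The 20 genes that lay furthest apart between the organoids were chosen in equal number for each direction. Of these 20, 9 were in the RefSeq table of start sites for GRCm38.p6. The 250 bases before the start are shown for the secretory-cell factor gene Foxa3 (chr7:19023540-19023789, minus strand) and the mucus protein gene Fcgbp (chr7:28070986-28071235, plus strand), whose 3 bile duct organoids all lay above the pancreatic duct organoids. They are shown also for the membrane protein gene Tm4sf1 (chr3:57301989-57302238, minus strand) and the homeobox gene Meis1 (chr11:19018970-19019219, minus strand), for which the order was the opposite. Of these 4 genes only Tm4sf1 is among the 20. The other 3 come from the lists of factors and mucus genes described further on. On the log2(FPKM + 1) scale these 3 were less far apart than the genes chosen in their direction. Each is written 5′ to 3′ towards the gene, and capitals mark a match to a searched motif.
Foxa3: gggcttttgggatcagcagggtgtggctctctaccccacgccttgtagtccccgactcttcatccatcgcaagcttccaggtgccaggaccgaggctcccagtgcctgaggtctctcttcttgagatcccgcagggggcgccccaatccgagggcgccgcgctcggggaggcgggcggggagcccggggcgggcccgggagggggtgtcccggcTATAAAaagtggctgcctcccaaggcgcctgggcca
Fcgbp: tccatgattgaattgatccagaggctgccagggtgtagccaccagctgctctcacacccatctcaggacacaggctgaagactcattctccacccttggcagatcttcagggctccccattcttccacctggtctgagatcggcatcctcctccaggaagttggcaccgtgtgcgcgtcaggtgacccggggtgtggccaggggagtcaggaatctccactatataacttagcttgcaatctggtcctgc
Tm4sf1: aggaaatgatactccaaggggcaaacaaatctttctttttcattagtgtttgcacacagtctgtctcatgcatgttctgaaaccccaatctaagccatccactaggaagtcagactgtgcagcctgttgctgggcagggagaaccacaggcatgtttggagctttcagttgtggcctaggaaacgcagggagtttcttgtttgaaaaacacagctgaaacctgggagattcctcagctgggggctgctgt
Meis1: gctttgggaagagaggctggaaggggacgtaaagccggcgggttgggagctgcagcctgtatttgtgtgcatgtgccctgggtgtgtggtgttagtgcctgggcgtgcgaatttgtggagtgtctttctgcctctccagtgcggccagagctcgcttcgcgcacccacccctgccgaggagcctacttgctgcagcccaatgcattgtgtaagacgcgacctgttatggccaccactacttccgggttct
The motifs searched on both strands were the forkhead TGTTTAC, the MEIS motif TGACAG and the TATA box TATAAA. Over 27025 RefSeq windows of this length they occurred in 3.09%, 16% and 13.0%. A TATA box in the Foxa3 window, 36 bases before the start, was the only match in the 4 windows. The G and C content was 68.8% for Foxa3, 56.4% for Fcgbp, 48.0% for Tm4sf1 and 59.6% for Meis1.

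The organoid libraries implied 15405379 to 20828216 reads, so that a single read on 1 kb of exon was worth 0.0480 to 0.0649 FPKM, and 11771 to 12117 genes reached 1 FPKM. Libraries of the same duct stood apart from each other. On the first principal component, with 56.2% of the variance, bile duct organoid 1 (-35.5) and pancreatic duct organoids 1 (-5.57) and 2 (-39.3) lay on one side, and bile duct organoids 2 (29.8) and 3 (30.4) and pancreatic duct organoid 3 (20.2) on the other. The same libraries were paired by Xist, the RNA of the inactive X chromosome, at 19.7 to 23.7 FPKM in the first 3 and 81.3 to 89.1 in the others. Reads of 4 Y-linked genes were present only in the latter 3, at or below 0.0627 FPKM. Pancreatic duct organoids 1 and 2 also shared a group of transcripts described at the end. The division by the first component and Xist crosses the labelled ducts, while that of pancreatic duct organoids 1 and 2 lies within the pancreatic duct group. The part of these divisions in the comparison was not tested beyond the fits that leave out a culture or include the division as a term.

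No gene differed between bile duct and pancreatic duct organoids at an adjusted p under 0.05 (limma with Benjamini-Hochberg adjustment, 0 of 12106, 0%), and the smallest adjusted p was 1.00. The unadjusted p was under 0.05 for 308 genes (2.54%), 146 (1.21%) with the higher mean in bile duct organoids and 162 (1.34%) in pancreatic duct organoids. A fit of limma with voom to the reads recovered from the FPKM steps gave 0 and 248 of 10284 genes. The 3 cultures of one duct lay wholly above the 3 of the other for 805 genes (6.65%), with bile duct higher for 414 (3.42%) and pancreatic duct higher for 391 (3.23%). Only 39 of these (0.322%) were also at least 2-fold apart on the scale of log2(FPKM + 1), 23 (0.19%) towards bile duct and 16 (0.132%) towards pancreatic duct. Regardless of overlap, the means were at least 2-fold apart for 143 genes (1.18%), for 365 without bile duct organoid 1 and for 247 without pancreatic duct organoid 3. A pseudocount of 0.1 gave 361 such genes and the recovered reads 323 of 10284. This scale understates the difference of weakly expressed genes.

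The interval around the difference was narrow for most genes. The 95% confidence interval lay within 2-fold in both directions for 10025 genes (82.8%), and the median absolute difference was 0.115 log2 units against a median SE of 0.172. That share was 72.8% for genes with a mean under 3 FPKM and 88.8% between 10 and 30 FPKM. For the other genes the interval reached past 2-fold in at least one direction. With a pseudocount of 0.1 the interval lay within 2-fold for 8906 of 12106 genes, and with the recovered reads for 7435 of 10284. Expression at 1 FPKM was shared by all 6 cultures for 10745 genes (88.8%). At the opposite end, 9 genes reached 1 FPKM in all 3 bile duct and no pancreatic duct organoid, and 15 genes the reverse. Such genes entered only through the group in which they were higher, so their groups could not overlap before scaling. Of the genes named further on these are Tm4sf5, Meis1, Abcg2, Ifit2 and Csf1r, whose values are given as a description only. The 454 genes that were just admitted, with 3 of 6 cultures, had a median mean level of 1.10 FPKM, and the 596 just left out, with 2 of 6, had 0.858 FPKM.

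**Figure D1:**
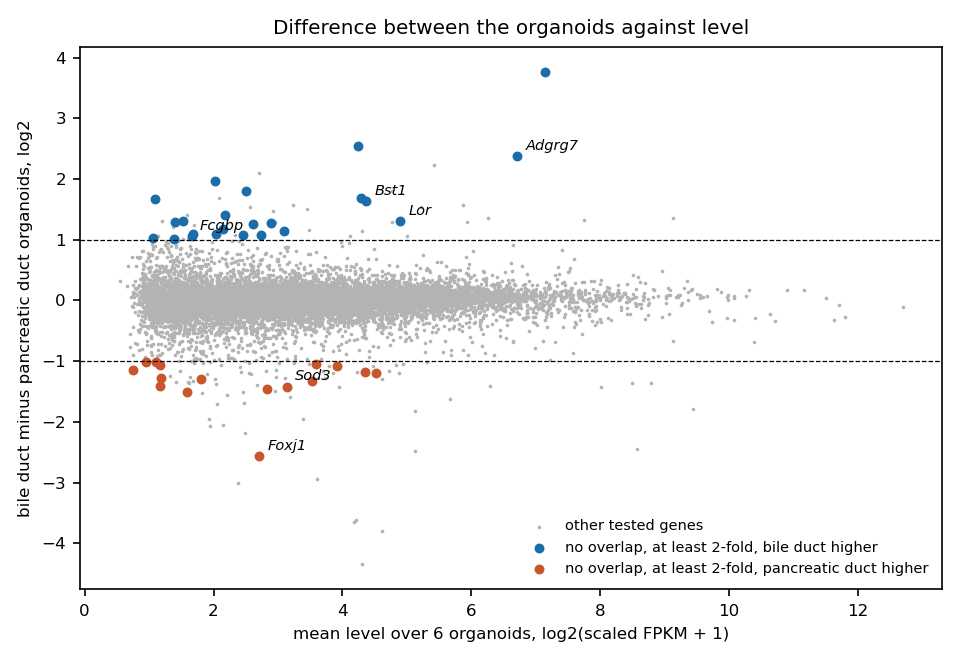
Difference between bile duct and pancreatic duct organoids (log2, vertical) against the mean level (log2(scaled FPKM + 1), horizontal) for 12106 genes. Dashed lines mark 2-fold. The 39 coloured genes, 23 above and 16 below, have groups of 3 cultures that do not overlap, and the grey points beyond the lines have groups that overlap or are led by 1 or 2 cultures.

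Keratins of duct epithelium were among the most abundant genes in both groups. Krt8, Krt18 and Krt19, the keratins of simple epithelia, were 3 of the 10 most abundant protein-coding genes once mitochondrially encoded and predicted genes were set aside. Krt8 stood at 3938, 2478 and 2632 scaled FPKM in bile duct organoids 1 to 3 and at 4590, 3298 and 1559 in pancreatic duct organoids 1 to 3. Krt19, the usual duct marker, read 832, 1022 and 1045 against 2114, 1219 and 672. For both keratins the pancreatic duct cultures included the highest and the lowest value, so the groups overlapped. The surface adhesion gene Epcam was at 1054, 401 and 347 against 436, 812 and 383, with a log2 difference of 0.04 ± 0.49 (SE, n = 3 and 3).

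All 24 duct keratin and surface genes were tested and 0 passed the adjusted threshold. Their median log2 difference was -0.11, beside 0.01 over all genes. It ran from -0.35 without pancreatic duct organoid 3 to -0.03 without pancreatic duct organoid 2. A further fit, chosen after seeing the data, had a term for high or low mitochondrial ribosomal RNA. Only pancreatic duct organoids 1 and 2 were high, so its duct difference set the 3 bile duct organoids against pancreatic duct organoid 3 alone. In that fit the median was 0.32, with 16 of 24 higher in bile duct organoids. Over all 6 cultures the groups did not overlap for 3 of the 24, beside 6.65% of all genes tested, among them Tspan8 and Elf3. Tspan8, a tetraspanin, read 172, 242 and 168 in bile duct, against 166, 137 and 121 in pancreatic duct organoids. Elf3, an epithelial ETS factor, read 27.6, 30.1 and 28.9 against 33.3, 57.0 and 34.6. Neither difference reached 1.5-fold on the log2(FPKM + 1) scale.

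Of the 38 regional transcription factors 25 were tested, 0 passed, 7 had a higher mean in bile duct against 18 in pancreatic duct organoids, with a median of -0.18. Without bile duct organoid 3 the median was -0.08, with 9 against 16. Foxa2, a factor on which both ducts depend, read 32.0, 33.9 and 29.0 in bile duct, against 30.7, 30.2 and 33.8 in pancreatic duct organoids, with a 95% interval of the log2 difference from -0.26 to 0.26. For this gene a 2-fold difference lay outside the interval.

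Sox9, the factor of duct progenitors, read 68.4, 38.5 and 44.8 in bile duct, against 61.6, 55.2 and 86.0 in pancreatic duct organoids (interval -1.06 to 0.21). The groups overlapped for the embryonic markers of territory. Pdx1 was present in bile duct organoids at 12.8, 26.8 and 20.1, against 20.7, 14.3 and 18.3 in pancreatic duct organoids (interval -0.56 to 0.79). Sox17 read 6.30, 0.545 and 1.76 against 0.507, 2.42 and 1.02, with the highest value in a bile duct culture and the 2 lowest in 1 culture of each duct. Hnf4a, a factor of hepatic and intestinal epithelia, read 80.3, 99.3 and 80.6 against 97.7, 63.6 and 72.8.

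Among the 25 factors 5 had groups that did not overlap, beside 6.65% of all genes tested, and for Meis1 the filter on low values required it. Foxa3 read 13.7, 19 and 15.8 in bile duct, against 8.35, 11.1 and 8.73 in pancreatic duct organoids, 1.72-fold higher by the means (log2 difference 0.72 ± 0.17, unadjusted p = 0.00437 by limma). Onecut1, the hepatocyte nuclear factor 6 gene needed for biliary and pancreatic duct development, read 1.82, 3.28 and 2.15 against 1.29, 1.72 and 1.34. Higher in pancreatic duct organoids were Meis1, Foxa1 and Klf5. Meis1, a partner of Hox and Pbx factors, read 0.571, 0.387 and 0.626 in bile duct, against 1.71, 1.81 and 1.15 in pancreatic duct organoids. Foxa1 read 2.15, 0.620 and 1.89 against 2.62, 2.66 and 3.58, and Klf5 136, 141 and 132 against 169, 168 and 152. The last is a small difference in a gene that varied little between cultures.

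**Figure D2:**
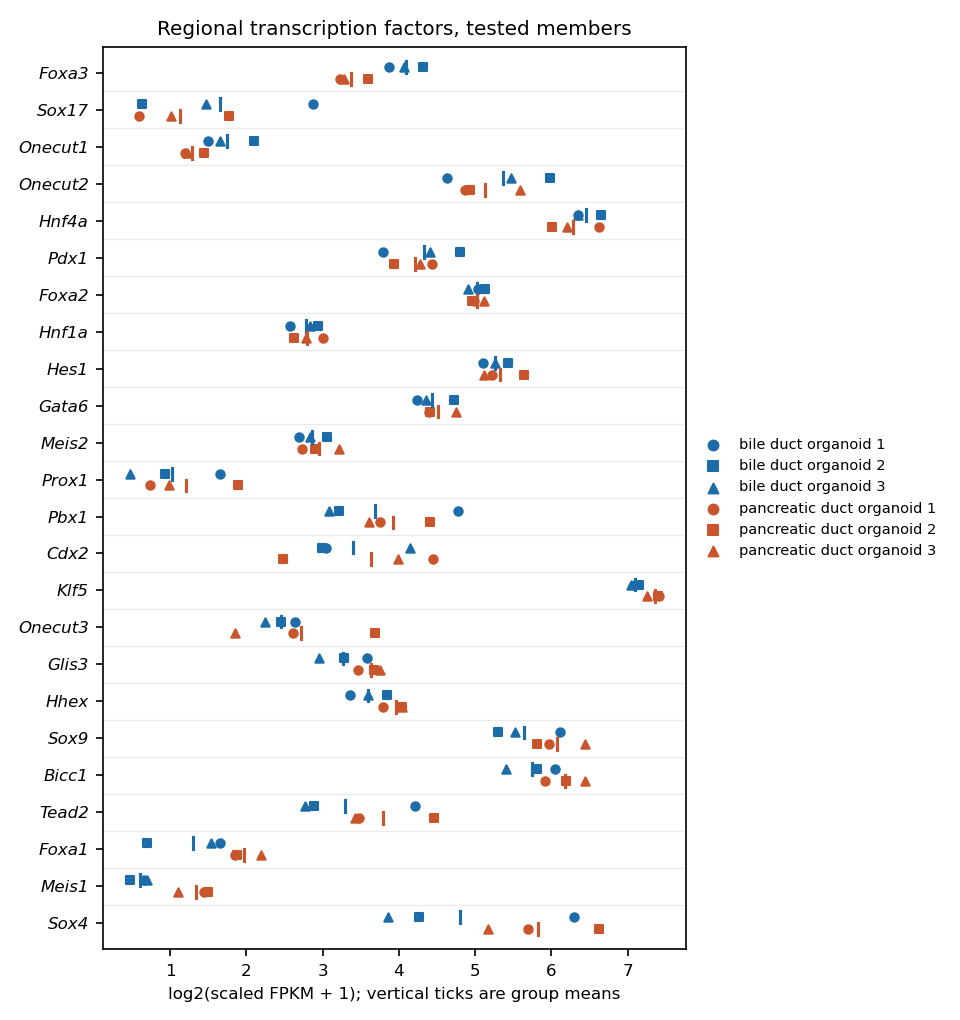
Level of 24 of the 25 tested regional transcription factors in each culture, as log2(scaled FPKM + 1), ordered by the difference between the means (vertical ticks). Foxa3 and Onecut1 at the top and Klf5, Foxa1 and Meis1 in the lower part have groups that do not overlap, while for Foxa2 and Pdx1 the 3 cultures per duct interleave or lie close.

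Genes of fluid and bicarbonate secretion showed 0 non-overlapping groups among 19 tested of 30, with a median of -0.05 that reached -0.17 without pancreatic duct organoid 1. Cftr, the chloride channel at the apex of duct cells, was low in both at 3.66, 1.31 and 3.19 in bile duct, against 2.32, 2.25 and 3.21 in pancreatic duct organoids. The calcium-gated chloride channel Ano1 stood far higher, at 130, 176 and 143 against 139, 146 and 106. Carbonic anhydrase 2 (Car2) read 246, 132 and 113 against 170, 150 and 96.5. The water channels were the least even: Aqp5 read 16, 136 and 125 against 47.0, 18.9 and 153, and Aqp1 10.4, 30.9 and 13.9 against 32.1, 12.4 and 139. Aqp5 was thus high in bile duct organoids 2 and 3 and pancreatic duct organoid 3, the cultures that also had high Xist. The secretin receptor Sctr was listed at 0 in 5 of 6 cultures and at 0.027 FPKM in bile duct organoid 3, and did not enter the test.

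Bile acid transport and sensing genes were mostly below the level for testing in both kinds of organoid. Only 8 of 26 were tested, 16 stayed under 1 FPKM in all 6 cultures, and the median was 0.08, which ran from -0.21 without bile duct organoid 2 to 0.26 without bile duct organoid 1. The apical bile acid importer Slc10a2 read 1.93, 0.154 and 0.140 in bile duct, against 1.47, 2.16 and 1.39 in pancreatic duct organoids, so its mean was lower in the biliary cultures and the groups overlapped. The bile acid receptor gene Nr1h4 read 0.563, 9.44 and 7.61 against 4.35, 2.60 and 5.28. The efflux pump Abcg2 was the 1 member of 8 without overlap, beside 6.65% of all genes tested, at 1.84, 2.48 and 1.87 against 0.521, 0.798 and 0.782, and it entered the test only through the bile duct organoids.

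Of the 24 mucus genes 9 were tested, 0 passed the adjusted threshold, and groups did not overlap for 4, against 6.65% of all genes tested. The median was 0.39, and ran from 0.26 without bile duct organoid 2 to 0.73 without bile duct organoid 3. By the mean, 6 of the 9 were higher in bile duct organoids, and those of them without overlap were Foxa3, with the values above, Fcgbp and Agr2. Fcgbp, which cross-links mucus, read 3.52, 4.12 and 3.13 in bile duct, against 1.42, 1.13 and 1.03 in pancreatic duct organoids, 3.01-fold higher. Agr2, a disulfide isomerase needed for mucin folding, read 6.58, 5.32 and 5.19 against 4.61, 1.14 and 1.11, so pancreatic duct organoid 1 lay near the bile duct cultures. The trefoil factor Tff2 went the other way, at 2.22, 4.96 and 3.16 against 10.1, 14.8 and 8.38, 3.21-fold higher in pancreatic duct organoids. Its relative Tff3 overlapped, at 47.4, 146 and 63.9 against 112, 30.4 and 28.7. The secreted gel-forming mucins Muc2, Muc5ac, Muc5b and Muc6 were under 1 FPKM in every culture. In the direct epithelia of bile duct and pancreatic duct, 1 library each, Fcgbp was at 178 and 1.47 FPKM and Agr2 at 295 and 0.852.

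Receptors and response genes for the factors in the medium had higher means in either group. Of 44 listed genes 40 were tested, 0 passed the adjusted threshold, 20 had the higher mean in each group, and the median was -0.000158. Without bile duct organoid 1, 14 were higher in bile duct organoids against 25 lower, and without pancreatic duct organoid 1 the numbers were 14 and 26. The single member without overlap, beside 6.65% of all genes tested, was the TGF-beta receptor Tgfbr2 at 32.6, 32.2 and 33.5 in bile duct, against 42.6, 34.3 and 35.5 in pancreatic duct organoids. TGF-beta is not among the factors named for the medium. Egfr read 37.3, 13.8 and 10.9 against 18.3, 32.5 and 10.4, and the FGF10 receptor Fgfr2 6.18, 17.4 and 10.9 against 5.11, 5.25 and 15.3. The R-spondin receptor Lgr4 read 15.1, 27.6 and 25.2 against 27.8, 26.5 and 37.0. Lgr5, the stem cell receptor of the same family, read 1.32, 2.38 and 1.24 against 0.675, 7.06 and 6.23, so that pancreatic duct organoids 2 and 3 had the most and pancreatic duct organoid 1 the least. A 4-fold higher level in pancreatic duct organoids lay inside its interval, from -2.32 to 0.67.

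Of the Wnt target and stem cell genes 23 of 38 were tested, 0 passed, 18 had the higher mean in pancreatic duct organoids and the median was -0.18. The median was -0.32 without pancreatic duct organoid 3. By the mitochondrial ribosomal RNA term, 13 of 23 were higher in pancreatic duct organoid 3 alone than in bile duct organoids. Axin2, the general Wnt target, read 5.95, 6.72 and 6.84 in bile duct, against 6.22, 6.56 and 15.5 in pancreatic duct organoids, with only pancreatic duct organoid 3 apart. Groups did not overlap for 4 genes, beside 6.65% of all genes tested. The Wnt ligand Wnt4 read 1.66, 2.67 and 1.91 against 1.42, 0.321 and 0.705. Ephb3, a receptor that positions intestinal crypt cells, read 7.92, 5.77 and 6.82 against 9.88, 8.20 and 9.67. The telomerase gene Tert read 2.80, 2.58 and 2.44 against 2.83, 3.29 and 4.20, and the polycomb gene Bmi1 14.4, 14.6 and 14.2 against 15.0, 17.0 and 16.2. The last 2 pairs of groups nearly touch.

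In the Notch pathway 15 of 25 genes were tested, 0 passed and the median was -0.07. It was -0.17 without pancreatic duct organoid 3, and 0.02 against pancreatic duct organoid 3 alone, by the mitochondrial ribosomal RNA term. The receptor Notch3 read 1.08, 1.62 and 1.60 in bile duct, against 2.37, 1.97 and 3.34 in pancreatic duct organoids and was the 1 member of 15 without overlap, beside 6.65% of all genes tested. Notch2, the main biliary receptor, read 12.1, 12 and 11.2 against 12.2, 13.1 and 11.6, and the target Hes1 33.4, 42.2 and 37.2 against 36.4, 49.1 and 33.6. Of the 28 tested genes of YAP targets and regenerating epithelium, 20 had the higher mean in pancreatic duct organoids (median -0.16). That count was 14 of 28 without pancreatic duct organoid 2, and 8 of 28 for pancreatic duct organoid 3 alone, by the mitochondrial ribosomal RNA term. Yap1 itself had 22.1, 22.8 and 21.7 against 21.4, 21.6 and 22.8. Clu, a gene of revival stem cells, read 2758, 693 and 626 against 1721, 2720 and 1046, and the YAP target Ankrd1 267, 69.3 and 89.5 against 206, 257 and 48.7, with the highest values of both in bile duct organoid 1 and pancreatic duct organoids 1 and 2.

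All 30 proliferation genes had the higher mean in bile duct organoids, 0 passed the adjusted threshold, and groups overlapped for all 30. The median was 0.29. Mki67, the proliferation marker, read 24.8, 65.5 and 64.0 in bile duct, against 31.4, 19 and 54.7 in pancreatic duct organoids. By the median over the 30 genes, pancreatic duct organoid 2 lay 0.65 log2 units below the mean of all cultures and bile duct organoid 1 0.23 below, while the other 4 lay 0.11 to 0.38 above. Without pancreatic duct organoid 2, 18 of the 30 were higher in bile duct organoids and the median was 0.02. With the mitochondrial ribosomal RNA level as a term, the number was 11 and the median -0.03.

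Cell cycle inhibitors and p53 targets had the higher mean in pancreatic duct organoids for 17 of 23 tested genes, with a median of -0.14 and 0 past the adjusted threshold. The groups did not overlap for 3, beside 6.65% of all genes tested. Gdf15, a secreted stress protein, read 2.1, 3.95 and 6.35 in bile duct, against 7.13, 8.07 and 9.75 in pancreatic duct organoids. Bbc3, which encodes the death protein Puma, read 7.33, 6.89 and 9.02 against 10.2, 10.0 and 12.1. Trp53inp1 read 25.5, 8.93 and 14.2 against 28.8, 26.3 and 27.2. Trp53 itself was level at 38.0, 36.6 and 38.5 against 40.0, 37.3 and 40.2, and Cdkn1a, the main cell cycle target, overlapped at 79.4, 50.7 and 73.6 against 74.0, 88.6 and 53.3. With any 1 culture left out, 3 to 7 of the 23 were higher in bile duct organoids, and the median ran from -0.28 without pancreatic duct organoid 2 to -0.05 without pancreatic duct organoid 1.

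Genes of cholesterol and fatty acid synthesis were all higher by the mean in bile duct organoids, 30 of 30, with a median of 0.32 and 0 past the adjusted threshold. Leaving out any 1 culture gave 28 to 30 of 30. Hmgcs1, an early enzyme of the sterol pathway, read 188, 296 and 266 in bile duct, against 155, 153 and 147 in pancreatic duct organoids (log2 difference 0.69 ± 0.18, unadjusted p = 0.00857 by limma). Acaca, which starts fatty acid synthesis, read 7.60, 8.32 and 8.65 against 7.48, 6.00 and 7.09. The groups did not overlap for either gene, and they overlapped for 27 of the 30, while 6.65% of all genes tested had groups without overlap. By the median over the 30 genes, bile duct organoids 2 and 3 lay 0.38 and 0.32 log2 units above the mean of all cultures, while bile duct organoid 1, at -0.18, was below pancreatic duct organoids 1 and 3, both at -0.09. The list's median was 0.53 without bile duct organoid 1 and 0.21 without bile duct organoid 2.

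Chaperones and stress genes of the endoplasmic reticulum were tested for all 30 listed genes, with 0 past the threshold, 23 higher in bile duct organoids and a median of 0.16. The median was 0.08 without bile duct organoid 3, and 18 of 30 were higher in bile duct organoids without bile duct organoid 2. The 4 genes without overlap, beside 6.65% of all genes tested, were Hspa5, Pdia6, Dnajc3 and Manf. Hspa5, the chaperone BiP, read 225, 213 and 208 in bile duct, against 190, 193 and 190 in pancreatic duct organoids, and Manf 29.5, 26.4 and 28.9 against 24.2, 23.4 and 22.5. These differences were small beside a fold of 2, and so was the spread of each gene. In hypoxia and glycolysis 23 of 29 genes had the higher mean in bile duct organoids, but 12 of 29 without pancreatic duct organoid 1, which was the lowest culture for this list. The 1 gene of 29 without overlap, beside 6.65% of all genes tested, was hexokinase 2 (Hk2) at 15.3, 12.6 and 13.4 against 8.52, 10.9 and 9.36.

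Of the 33 antioxidant and detoxification genes 30 were tested, 0 passed and 5 had groups without overlap, beside 6.65% of all genes tested. Of these 3 were higher in bile duct organoids. Aldh3a1, an aldehyde dehydrogenase, read 7.41, 22.1 and 5.22 in bile duct, against 3.94, 0.935 and 1.93 in pancreatic duct organoids. Mgst2 read 3.28, 2.72 and 2.25 against 0.654, 0.506 and 1.53, and the thioredoxin gene Txn1 373, 463 and 438 against 350, 285 and 315. The carbonyl reductases Cbr3, at 3.13, 3.31 and 3.38 against 6.82, 9.02 and 4.70, and Cbr1, at 28.1, 29.1 and 27.1 against 30.2, 36.9 and 31.5, were higher in pancreatic duct organoids.

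Inflammation and interferon genes varied widely between cultures of the same duct. Of 15 tested interferon genes 2 had groups without overlap, beside 6.65% of all genes tested, namely Oas1a at 10.0, 3.91 and 4.31 in bile duct, against 3.26, 2.92 and 3.28 in pancreatic duct organoids, and Ifit2 at 0.976, 0.325 and 0.605, against 1.07, 1.37 and 1.58. Of the 22 chemokine and inflammation genes tested, 0 had groups without overlap and the interval lay within 2-fold for only 2. Ccl2, which recruits monocytes, read 253, 2.50 and 6.17 in bile duct, against 80.2, 207 and 15.8 in pancreatic duct organoids. Lcn2, an iron-binding defence protein, read 557, 13.8 and 12.3 against 64.3, 456 and 67.7. High values thus lay in bile duct organoid 1 and pancreatic duct organoid 2, 1 culture of each duct. The same cultures led several of the genes with the widest spread and a difference between the means near 0. Complement C3 read 364, 59.1 and 25.1 against 46.4, 227 and 51.6, a log2 difference of 0.00369 ± 1.08 that ran from -1.07 without bile duct organoid 1 to 0.84 without bile duct organoid 3. Akap12 at 49.5, 3.63 and 1.31 against 5.19, 26.8 and 1.99, Serpinh1 at 28.5, 5.30 and 10.2 against 5.19, 42.4 and 6.16, and Tmsb4x at 585, 76.4 and 156 against 220, 347 and 89.0 had the same leaders. Lgals2, with 92.3, 200 and 324 against 501, 51.8 and 239, had its lowest values in pancreatic duct organoid 2 and bile duct organoid 1. For these genes too the sign depended on which culture was left out, so no difference in either direction was settled. Akap12, for example, ran from -1.29 without bile duct organoid 1 to 0.93 without bile duct organoid 3.

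**Figure D3:**
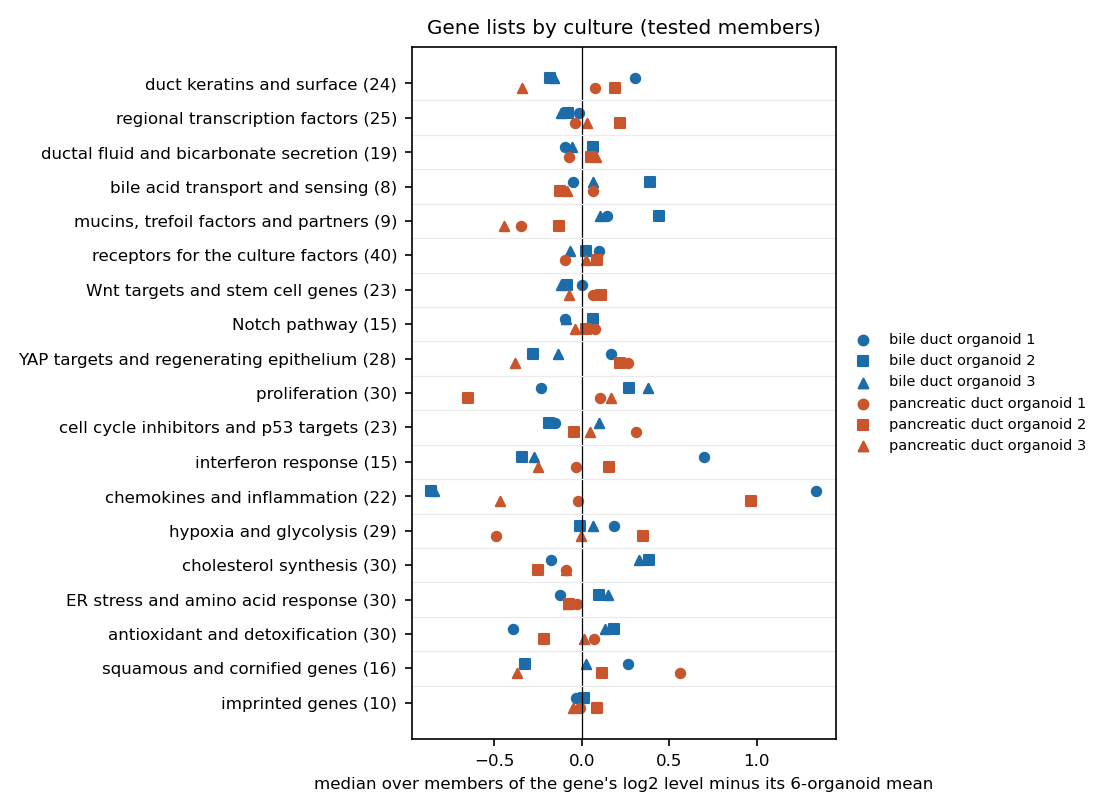
Median over the tested members of each gene list (number in brackets) of a gene's log2 level minus its mean over 6 organoids, for each culture. For chemokines and inflammation, bile duct organoid 1 (1.34) and pancreatic duct organoid 2 (0.968) lie far to the right of the other 4 cultures, and for mucins all bile duct organoids (0.103 to 0.442) lie above all pancreatic duct organoids (-0.447 to -0.129).

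Among all tested genes with a symbol, protein-coding and with at least 3 FPKM in the higher group, the widest separation towards pancreatic duct organoids was in Foxj1, the master regulator of motile cilia (ENSMUSG00000034227, chr11:116330704-116335399 on GRCm38). It read 3.48, 0.599 and 1.71 scaled FPKM in bile duct, against 14.3, 20.2 and 11.5 in pancreatic duct organoids. The means were 1.93 ± 1.46 and 15.3 ± 4.41 (SD, n = 3 and 3), a 7.94-fold difference, and the log2 difference was -2.57 ± 0.40. The lowest pancreatic duct culture lay well above the highest bile duct culture. Anxa10, an annexin of gastric-type epithelium, read 0.669, 0.642 and 1.08 against 1.34, 13.1 and 2.92, with most of its difference from pancreatic duct organoid 2.

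The next genes towards pancreatic duct were Tff2, given above, and Sod3, the extracellular superoxide dismutase (ENSMUSG00000072941), at 4.07, 3.33 and 6.11 in bile duct, against 10.5, 16.4 and 14 in pancreatic duct organoids. The other 6 were Glipr1, Nptxr, Tm4sf1, Cryab, Epb41l4a and Tmem132a, with log2 differences from -1.33 to -1.04. Tm4sf1 read 23.0, 10.2 and 12 against 47.6, 30.1 and 27.1, and the small heat shock protein gene Cryab 14.3, 9.56 and 14.2 against 42.3, 17.7 and 34.7. Epb41l4a was the steadiest of these at 12.9, 7.35 and 8.61 against 24.4, 18.6 and 20.4.

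Towards bile duct organoids the clearest gene was Bst1, a cell surface ADP-ribosyl cyclase (ENSMUSG00000029082, chr5:43818885-43843986 on GRCm38). It read 31.8, 39.0 and 36.2 in bile duct, against 7.63, 12.6 and 12.8 in pancreatic duct organoids. The means were 35.7 ± 3.62 and 11 ± 2.92 (SD, n = 3 and 3), 3.24-fold apart, and the log2 difference was 1.64 ± 0.21 (unadjusted p = 0.000189, limma). Lor, a cornified envelope protein of the skin, read 58.6, 39.8 and 41.5 against 18.9, 21.4 and 14.3, while the list of 16 tested squamous genes had a median of -0.13, which ran from -0.30 without pancreatic duct organoid 3 to 0.27 without pancreatic duct organoid 1. In both direct epithelia Lor was at or under 0.109 FPKM.

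Differences that were less even between cultures were seen in Adgrg7, an adhesion G protein-coupled receptor, at 212, 291 and 218 in bile duct, against 64.4, 9.23 and 144 in pancreatic duct organoids. Clic6, a chloride channel family member, read 44.8, 39.2 and 21.9 against 3.59, 17.2 and 14.4. Nr2f2, an orphan nuclear receptor, read 7.11, 15.2 and 10.9 against 4.08, 2.1 and 5.91. Tm4sf5 read 8.91, 1.48 and 1.27 against 0.233, 0.0521 and 0.329, Bex1 5.22, 5.01 and 9.52 against 1.05, 1.09 and 4.01, and Papss2, which makes the sulfate donor for mucins and glycans, 11.7, 15.0 and 9.17 against 3.56, 8.25 and 3.50. With Aldh3a1 and Agr2 these made up the 10 genes named towards bile duct. None of the 20 genes named in both directions passed the adjusted threshold. One non-coding RNA, Gm26880, chosen here after its values were seen, was further apart than any of them at 559, 595 and 424 against 17.0, 53.4 and 56.1.

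**Figure D4:**
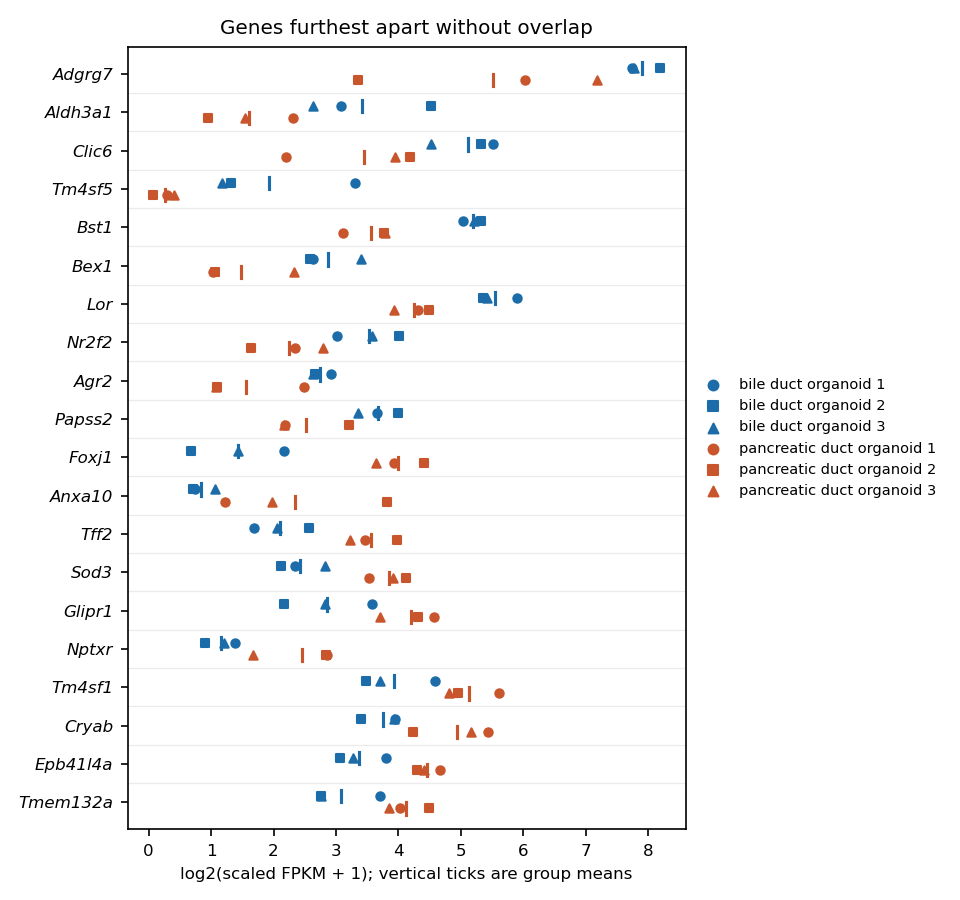
Level in each culture, as log2(scaled FPKM + 1), of the 10 protein-coding genes furthest apart without overlap in each direction, with group means as vertical ticks. In Bst1 and Lor the 3 cultures of each duct lie close together, in Adgrg7 the pancreatic duct cultures spread from 9.23 to 144 scaled FPKM, and in Foxj1 the gap between the groups is wide.

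Summed markers of acinar and endocrine cells, fibroblasts, smooth muscle, endothelium, nerve and leukocytes reached at most 29.8 FPKM in any culture, in bulk samples in which fewer cells of a type and less RNA per cell cannot be told apart. Of 30 acinar markers 1 was tested and 16 were at 0 in all 6 cultures, with summed levels of 3.51 to 10.8 FPKM in bile duct, against 5.05 to 6.01 in pancreatic duct organoids. Amy2a1 and Cpa1, which define acinar cells, were at 0 throughout. Of 22 endocrine markers 0 were tested, with Ins1 and Gcg at 0 in all 6 cultures and sums of 1.26 to 2.62 and 1.56 to 3.11 FPKM. Summed fibroblast markers lay at 3.15 to 3.48 and 1.99 to 29.8 FPKM, and the upper value was Vim in pancreatic duct organoid 2, at 29.4 scaled FPKM, while Col1a1 was under 1 FPKM in every culture. Summed leukocyte markers lay at 3.21 to 6.8 and 6.50 to 14.9 FPKM, with Ptprc at or below 0.008. Within this list Csf1r, the receptor of the cytokine Csf1, entered the test only through pancreatic duct organoids and read 0.555, 0.171 and 0.378 in bile duct, against 3.50, 1.04 and 1.28 in pancreatic duct organoids.

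Hepatocyte markers were tested for 2 of 22 genes and summed to 17.1 to 153 FPKM in bile duct, against 10.5 to 86.3 in pancreatic duct organoids. Most of this was Ttr, the transthyretin gene, at 14.4, 139 and 35.7 against 8.32, 6.06 and 81.0, with Alb at or below 3.38 FPKM. Lists of other epithelia and of mesothelium had higher sums, each led by 1 or 2 genes. The 15 Paneth and goblet cell markers summed to 110 to 227 FPKM in bile duct, against 89.7 to 167 in pancreatic duct organoids, mostly Tff3 and Spink4, while Lyz1 and Ang4, which define Paneth cells, were at 0. Of these markers 5 were tested, 4 had the higher mean in bile duct organoids, groups did not overlap for Fcgbp and Agr2, beside 6.65% of all genes tested, and the median was 0.73, and 1.13 without pancreatic duct organoid 1. Their part in the mucus result, with which they share Tff3, Fcgbp and Agr2, was not tested. Gastric markers summed to 47.0 to 108 against 21.4 to 131 FPKM, mostly the protease gene Ctse, with Gkn1, Gkn2 and Sox2 at 0 throughout and Tff2, given above, the 1 of 2 tested members without overlap. Intestinal absorptive markers summed to 74.9 to 106 against 68.3 to 137 FPKM, mostly villin (Vil1), with Sis and Apoa4 at 0. Tuft cell markers summed to 11.5 to 58.2 against 22.8 to 34.9 FPKM, mostly Ptgs1, with Il25 and Gnat3 at 0. The mesothelium list summed to 1140 to 1930 against 1050 to 2880 FPKM, nearly all from Krt19 and Msln, with Wt1 at or below 0.147. Hox genes, which record position along the body axis, were tested for 0 of 33 measured, and 32 stayed under 1 FPKM in all 6 cultures. Of 10 tested imprinted genes 0 had groups without overlap.

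Mitochondrially encoded genes other than the ribosomal RNAs made up 5.42%, 5.44% and 5.68% of all FPKM in bile duct organoids, against 7.07%, 6.08% and 6.13% in pancreatic duct organoids. The groups did not overlap (exact permutation test, two-sided p = 0.1, the smallest that 3 against 3 can give). By gene, 12 of 13 mitochondrial messenger RNAs had the higher mean in pancreatic duct organoids with a median of -0.27. Groups did not overlap for 3 of the 13, beside 6.65% of all genes tested, and pancreatic duct organoid 1 was the highest culture for most. Cytosolic ribosomal protein genes leaned the other way, with 70 of 78 higher in bile duct organoids, a median of 0.10 and 6 without overlap. Among the 78, Rps2, which has near-identical pseudogene copies, read 44.1, 684 and 1279 against 60.5, 54.6 and 746 FPKM as deposited. Its copy Rps2-ps13 had 1675, 1142 and 26.3 against 1649, 1489 and 871. Whether reads of the gene and its copy were assigned differently in different libraries was not tested, and the value of such genes is uncertain.

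Leaving out pancreatic duct organoid 3 gave the only adjusted calls of any fit run, 11 of 11844 genes (0.0929%), with 10 higher in pancreatic duct and 1 in bile duct organoids. Each of the 11 was at least 4-fold apart between pancreatic duct organoids 1 and 2 and all 4 other cultures, a pattern that 16 tested genes showed upwards and 13 downwards. Genes that reached 1 FPKM in these 2 cultures alone did not enter the test, so the upward count leaves them out. The heat shock protein gene Hsp90aa1 read 4.77, 3.46 and 4.19 in bile duct, against 277, 247 and 2.81 in pancreatic duct organoids. The mitochondrial ribosomal RNA mt-Rnr2 read 2.54, 4.38 and 3.34 against 427, 393 and 3.15, and the basal keratin gene Krt14 1.34, 1.09 and 1.11 against 15.8, 18.1 and 1.26. Pancreatic duct organoid 3 was in each case at the level of bile duct organoids. In the direct epithelia Hsp90aa1 was at 176 and 104 FPKM and mt-Rnr2 at 1503 and 933, while Krt14 was at 3.05 and 0.258, nearer to the 4 low cultures.

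Genes whose symbols begin with Rrp, for ribosomal RNA processing, were looked at after their values were seen. Pancreatic duct organoids 1 and 2 both lay above the 4 other cultures for 8 of 8 such genes, and at least 4-fold above in deposited FPKM for 7 of 8, all but Rrp1b at 3.65-fold. Over the 13479 genes that reached 1 FPKM in at least 1 organoid, these shares were 5.72% and 0.208%. As deposited, Rrp1 read 2.30, 4.23 and 3.89 FPKM in bile duct organoids, then 95.6, 79.8 and 3.83 in pancreatic duct organoids, and 29.4 and 30.1 in the epithelia of bile duct and pancreatic duct. In the other direction the endodermal factor Gata5 read 9.81, 9.05 and 17.3 in bile duct, against 1.42, 1.77 and 13.1 in pancreatic duct organoids, scaled. AI506816, the single call higher in bile duct organoids, had 37.4, 44.8 and 52.4 against 3.43, 2.53 and 29.6. Hsp90aa1 and Rpl12 are genes with pseudogene copies, and whether reads were divided between them and the copies was not tested. Whether the libraries were prepared or processed differently was not tested.

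**Figure D5:**
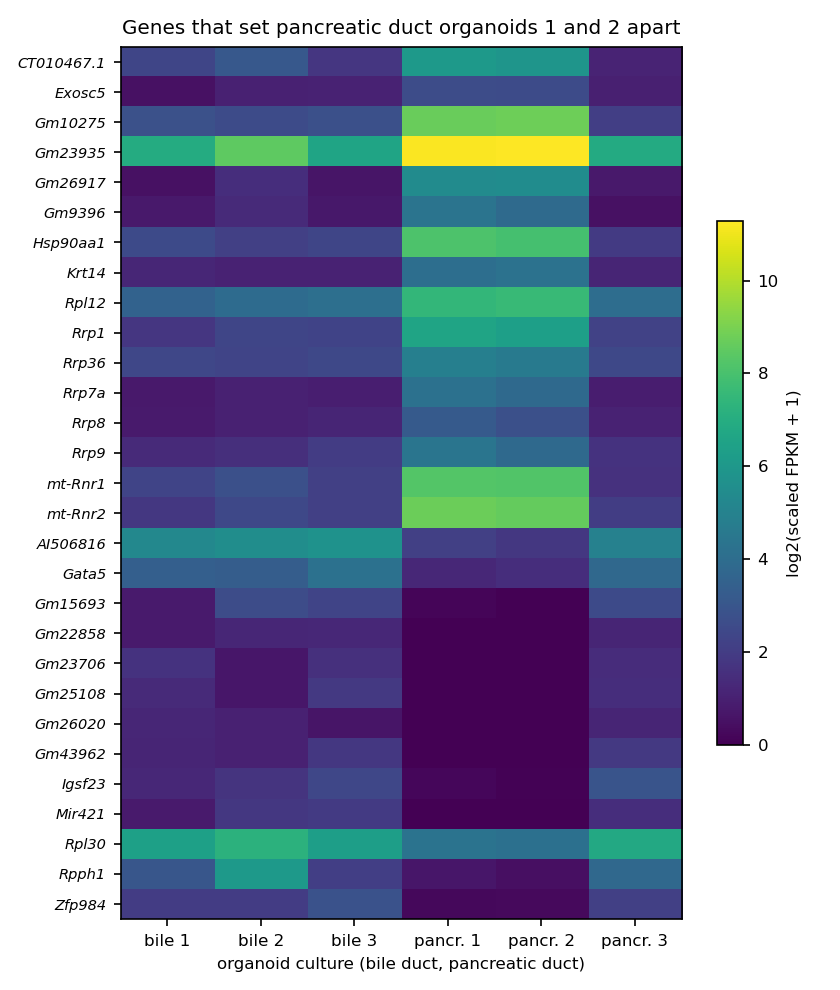
Level, as log2(scaled FPKM + 1) in colour, of the 29 tested genes for which pancreatic duct organoids 1 and 2 are at least 4-fold above (16 genes, upper rows) or below (13 genes, lower rows) the 4 other cultures. Pancreatic duct organoid 3 has the colours of the bile duct organoids in every row.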

How the data were processed

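Polyadenylated RNA of 6 organoid cultures was sequenced from libraries of an NEBNext Ultra kit (per the labels). The values are FPKM, as the authors deposited them for 31228 genes, and no header names this unit, which was read from the values. The submitters' processing notes list Bowtie2 2.2.3, HISAT2 2.1.0, TopHat2 and HTSeq 0.6.0 without their roles, and the counting rule and strand are not given in the sources used here. Multiplied by GENCODE M21 exon length, values of 28267 genes (90.5%) were whole multiples of 1 read in all 8 libraries (tolerance 0.05 reads). Each such implied depth covers counting error only.

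Organoid columns were brought to one scale with trimmed means of their log ratios (30% and 5% trimmed), called scaled FPKM. Genes with at least 1 deposited FPKM in at least 3 organoids were tested on log2(FPKM + 1) with limma 3.58.1 (R 4.3.3), intensity trend and Benjamini-Hochberg adjustment at 0.05. List members and list medians refer to tested genes, and list sums to all members. The members and gene lists were chosen with earlier results of these data known. Named genes are the 10 furthest apart without overlap in each direction, the 10 most abundant, the 5 with the widest spread and no difference, any adjusted call, and list members that are abundant or do not overlap. Members named for their role were chosen after their values were seen. Alternatives varied scaling, pseudocount, filter, test, replicate block and cultures. The values of some list members are not reported here. The test was tried on simulated data. Promoter sequences are RefSeq, GRCm38.p6. Figures used matplotlib 3.10.9.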

Additional observations from a re-analysis of the deposited data

How the results depend on the processing

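Over 16 other settings, no leading gene of the 20 changed sign where it was tested, while 260 of the 468 leading and listed genes did in at least 1 setting. The 20 were chosen as the furthest apart without overlap, so leaving out a culture could hardly change their sign, and this does not measure their stability. There were 0 genes past the adjusted threshold except in the fit without pancreatic duct organoid 3. Leaving out each culture in turn gave 0 to 11 adjusted calls, 160 (without bile duct organoid 2) to 1021 (without bile duct organoid 1) genes at an unadjusted p under 0.05, 52 to 284 non-overlapping genes at least 2-fold apart, and 9126 to 9642 genes with an interval within 2-fold. Without regard to fold, the fits that leave out a culture gave 1250 (without bile duct organoid 3) to 3940 (without bile duct organoid 1) non-overlapping genes. Groups with a culture left out separate more readily than full groups. Requiring 5 FPKM, which leaves 8198 genes, gave 178 genes at an unadjusted p under 0.05 and 21 non-overlapping genes at least 2-fold apart. Testing all 26795 genes above 0 gave 690 genes at an unadjusted p under 0.05 and 23775 with an interval within 2-fold. Genes near 0 FPKM can differ little on the log2(FPKM + 1) scale, so the last count does not measure likeness for them. The median absolute difference in that fit was 0.0676 log2 units. A pseudocount of 0.1 gave 78 non-overlapping genes at least 2-fold apart. A term for the presence of Y-linked reads, chosen after seeing the data, gave 614 genes at an unadjusted p under 0.05. The term for mitochondrial ribosomal RNA, also chosen then, sets the bile duct organoids against pancreatic duct organoid 3 alone. Its median absolute difference was 0.144 log2 units, against 0.115 in the main fit. Without further scaling, non-overlapping genes numbered 309 towards bile duct and 462 towards pancreatic duct, against 414 and 391. The replicate block gave 283 genes at an unadjusted p under 0.05 and 0 adjusted, and changed no call. Deviations of same-numbered cultures correlated at -0.106, -0.441 and 0.481, so the numbers were not taken as a pairing. With 3 cultures a group and the spread seen between them, genes under 3 FPKM were the least precise.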

Other observations

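Some genes did not enter the comparison because fewer than 3 cultures reached 1 FPKM, and yet had cultures of one duct wholly above the other and at least 2-fold apart on the log2(FPKM + 1) scale. There were 16 of these, 6 higher in bile duct, against 10 in pancreatic duct organoids, and those named here were chosen after their values were seen. Gata4, an endodermal factor of stomach and pancreas, read 0, 0.0385 and 0.111 FPKM in bile duct, against 4.01, 4.88 and 0.750 in pancreatic duct organoids. Its relative Gata5 had the opposite order in pancreatic duct organoids 1 and 2. Hoxb4 read 0, 0.0390 and 0.0212 against 4.58, 0.598 and 0.0561, with nearly all of it in pancreatic duct organoid 1. Pla2g7, a secreted phospholipase, read 0.0580, 0 and 0.0561 against 2.64, 1.23 and 0.942. In the other direction the homeobox gene Zfhx4 read 0.992, 1.95 and 1.48 in bile duct, against 0.00413, 0.0325 and 0.0275 in pancreatic duct organoids, and Itih2, a liver plasma protein, 1.80, 3.65 and 0.459 against 0.0979, 0.189 and 0.188.

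Nkx6-1, a factor of pancreatic progenitors and beta cells, was listed at 0.107, 0 and 0 FPKM in bile duct, against at 0.745, 3.01 and 0.0770 in pancreatic duct organoids, with the highest value in pancreatic duct organoid 2. Nr5a2, a factor of acinar and biliary epithelium, read 0.780, 0.280 and 0.203 against 0.121, 2.14 and 1.17. Both were left out of the comparison by the rule on low values.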
